A study of Mus musculus with 6 samples.

Results

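Fat1, Snx13 and Mbnl1 are 3 mouse genes of middling length around which listed ATAC-seq regions lie in clusters. A region belongs to a gene here if its centre (the midpoint of its ends) lies inside the gene's annotated span or within 100 kb of it, and that stretch is called the gene's window. By this rule the windows held 23 of the 6502 regions of the deposited list, 8 at Fat1, 8 at Snx13 and 7 at Mbnl1. The genes were picked because they had 7 or 8 regions each, so their counts are a description of how they were chosen and carry no test.

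The study profiled open chromatin, which a transposase can cut, in basal stem cells sorted from mouse prostates as CD45-, CD31-, Sca-1+ and CD49f+. There were 3 libraries from inflamed prostates, labelled with the genotype POET3 and the treatment "inflamed", and 3 from naive prostates, labelled with the genotype WT and the treatment "control". POET3 mice express ovalbumin in the prostate as a transgene, and the inflammation followed transfer of pre-activated OT-1 splenocytes, with harvest after 7 days. The extraction protocol names POET3 mice in both groups, so the genotype of the naive libraries is given in 2 ways, and as labelled genotype and inflammation cannot be told apart. The labels give no age or number of pooled animals.

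The list gives a chromosome, a start and an end for each region and nothing else. It has no signal, fold change, p-value or value per library, so neither depth nor replicate error is known, and for none of the regions below can it be said in which group the chromatin was more open. It was read as a list of regions that differ between inflamed and naive cells, because "diff" is part of its deposited name and a differential test tool is among those the submitters name. No source used here states this outright. Nearly all regions have 1 of 2 widths, 451 bases (3291 regions, 50.6%) or 143 bases (3210 regions, 49.4%), and what the widths stand for is not given in the sources used here. The markers of basal cells cannot be checked, because the list holds no levels.

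The genes have unrelated products. Fat1 encodes a giant protocadherin of the cell surface, whose Drosophila relative Fat binds the cadherin Dachsous and acts on growth through the Hippo pathway, a kinase cascade that restrains the coactivators YAP and TAZ. Snx13 encodes a sorting nexin with an RGS domain, of the family that carries lipid-binding PX domains and works in endosomal traffic. Mbnl1 encodes a muscleblind-like RNA-binding protein that regulates alternative splicing and is sequestered by expanded CUG repeats in myotonic dystrophy.

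A single region of the 23 lay on an annotated transcription start. It was the first at Snx13, chr12:35046972-35047422 in mm10, 451 bases wide and centred 0.008 kb downstream of the RefSeq start at 35047189. Of the 17492 protein-coding genes with an annotated start in the sequence table, 450 (2.57%) had a start inside a listed region. Widths were uneven there, since 431 of the 481 starts so covered (89.6%) lay in 451-base regions. The other starts of the genes, at 44950208 on chromosome 8 for Fat1 and at 60472830 and 60501179 on chromosome 3 for Mbnl1, lay outside every region. The nearest region to the Fat1 start was centred 12.1 kb upstream of it. At the first Mbnl1 start the nearest was centred 12.7 kb upstream, and at the second 6.04 kb upstream.

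The bases that precede these starts are shown so that the covered start can be set beside the uncovered ones. They are RefSeq sequences of GRCm38.p6, plus strand, with the base before the start at the right-hand end. For Snx13 only the 217 bases that fall inside the listed region are printed, and for the other starts 250 bases. Capitals mark matches to the motifs searched.
Snx13, chr12:35046972-35047188: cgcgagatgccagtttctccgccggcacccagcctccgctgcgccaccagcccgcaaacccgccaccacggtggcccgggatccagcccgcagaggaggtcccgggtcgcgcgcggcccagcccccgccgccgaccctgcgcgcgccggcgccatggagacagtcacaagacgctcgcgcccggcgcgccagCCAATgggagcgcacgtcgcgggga
Fat1, chr8:44949958-44950207: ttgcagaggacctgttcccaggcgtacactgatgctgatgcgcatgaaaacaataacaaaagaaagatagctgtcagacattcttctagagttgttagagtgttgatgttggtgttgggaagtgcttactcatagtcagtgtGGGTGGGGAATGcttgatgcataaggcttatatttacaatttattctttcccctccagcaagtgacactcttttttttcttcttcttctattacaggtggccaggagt
Mbnl1 first start, chr3:60472580-60472829: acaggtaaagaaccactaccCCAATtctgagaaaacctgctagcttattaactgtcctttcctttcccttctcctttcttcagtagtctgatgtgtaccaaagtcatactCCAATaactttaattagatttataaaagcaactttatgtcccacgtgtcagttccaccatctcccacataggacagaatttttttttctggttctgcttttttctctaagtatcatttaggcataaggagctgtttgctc
Mbnl1 second start, chr3:60500929-60501178: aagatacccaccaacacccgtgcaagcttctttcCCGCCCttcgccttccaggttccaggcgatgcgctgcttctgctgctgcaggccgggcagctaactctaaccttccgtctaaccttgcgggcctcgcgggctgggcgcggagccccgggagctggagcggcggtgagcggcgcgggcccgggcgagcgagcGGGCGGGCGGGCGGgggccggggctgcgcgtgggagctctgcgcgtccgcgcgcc

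The starts were of 2 kinds in base composition. The Snx13 stretch had a GC content of 77.0% and 34 CpG dinucleotides, and 95.8% of the 21238 promoters of protein-coding genes had a lower GC content over the same length. The second Mbnl1 start was alike, with 73.6% GC and 33 CpG, although no region lay on it. The Fat1 start (42.0% GC, 2 CpG) and the first Mbnl1 start (38.0% GC, 1 CpG) were poor in both. This Fat1 start lay 17.1 kb inside the gene span, and the bases before any earlier start of Fat1 were not read. The median before the 481 starts inside a listed region was 62.0% GC over 250 bases, against 55.6% over all promoters.

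None of 8 motifs was found in the Snx13 stretch on either strand. They were NF-kB (GGNNTTTCC), AP-1 (TGANTCA), the androgen receptor half-site (AGAACA), TEAD (GGAATG), Sp (GGGCGG), KLF (CCACCC), ETS (CCGGAAGT) and RUNX (TGTGGTTT). The NF-Y motif CCAAT was added after the sequences had been seen, and it stood 21 bases before the Snx13 start, as it did somewhere in 32.5% of all promoters over 217 bases. At Fat1, a TEAD match 97 bases before the start touched a KLF match on the other strand, without overlap. TEAD letters were found in 11.7% of all promoters over 250 bases, and KLF letters in 30.2%. The second Mbnl1 start had 4 Sp matches, of which 3 overlapped each other, and 42.6% of promoters had at least 1. The first Mbnl1 start had 2 CCAAT matches, as against 35.4% of promoters with any. A match is a description of letters. The bases of the Snx13 region from the start on, and the sequences under the other 22 regions, were not used here.

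The Fat1 cluster changed width at the edge of the annotated span. The gene (NCBI gene 14107) spans chr8:44933100-45052257 on the plus strand, 119 kb. Its annotated start lies 17.1 kb inside that span, and any transcripts that begin earlier were not read. All 4 regions upstream of the span were 143 bases wide, centred 54.8, 50.2, 20.9 and 7.94 kb from it. All 4 regions inside it were 451 bases wide, centred 4.99, 38.0, 47.2 and 52.7 kb from its start. Measured from the annotated transcription start instead, the first of these 451-base regions lay 12.1 kb upstream, so the change of width did not fall at that start. The last of them lay 44.3% along the gene, and none followed in the rest of it or in the 100 kb beyond.

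The outermost Fat1 regions were chr8:44878265-44878407 and chr8:44985621-44986071, and the whole cluster fitted into 108 kb. Of the protein-coding genes with at least 3 regions inside and 3 outside in their windows, 12 in number, Fat1 was the only 1 (8.33%) whose inside regions all had a single width and whose outside regions all had the other. That comparison uses spans and was chosen after the widths at Fat1 had been seen. Distances between neighbouring centres ran from 4.58 to 33.0 kb with a median of 12.9 kb. The closest pair was the 2 outermost upstream regions, and the widest gap parted the first region inside the gene from the next.

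Snx13 had its regions in 2 groups with most of the gene between them. The gene (NCBI gene 217463) spans chr12:35046147-35147480 on the plus strand, 101 kb. The first group had 3 regions of 451 bases, at chr12:35046972-35047422, chr12:35055130-35055580 and chr12:35063622-35064072, evenly set at 8.16 and 8.49 kb from each other. They lay within the first 17.5% of the gene. A stretch of 119 kb without a region followed.

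The second Snx13 group had 5 regions, centred 35.4, 44.8, 62.1, 72.8 and 82.2 kb beyond the gene's far end. Their widths in order were 451, 451, 143, 143 and 451 bases. They ran from chr12:35182656 to chr12:35229912, with 46.8 kb between the first and last centres. Upstream of Snx13 no region lay within 100 kb.

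Mbnl1 had a chain of wide regions that ran into the gene from upstream. The gene (NCBI gene 56758) spans chr3:60472559-60629750 on the plus strand, 157 kb. The upstream regions, all of 451 bases, were centred 63.9, 48.1, 34.5 and 12.5 kb before the span. Another of the same width, chr3:60494915-60495365, lay between the gene's 2 annotated starts. The first and last centres of these 5 were 86.4 kb apart.

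The remaining Mbnl1 regions lay 70.1% and 74.5% along the gene. They were chr3:60582564-60583014, of 451 bases, and chr3:60589631-60589773, the only one at this gene with 143 bases. They were 6.91 kb apart, the shortest distance at Mbnl1, and a gap of 87.6 kb parted them from the one between the starts. None lay downstream of the gene.

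**Figure D1:**
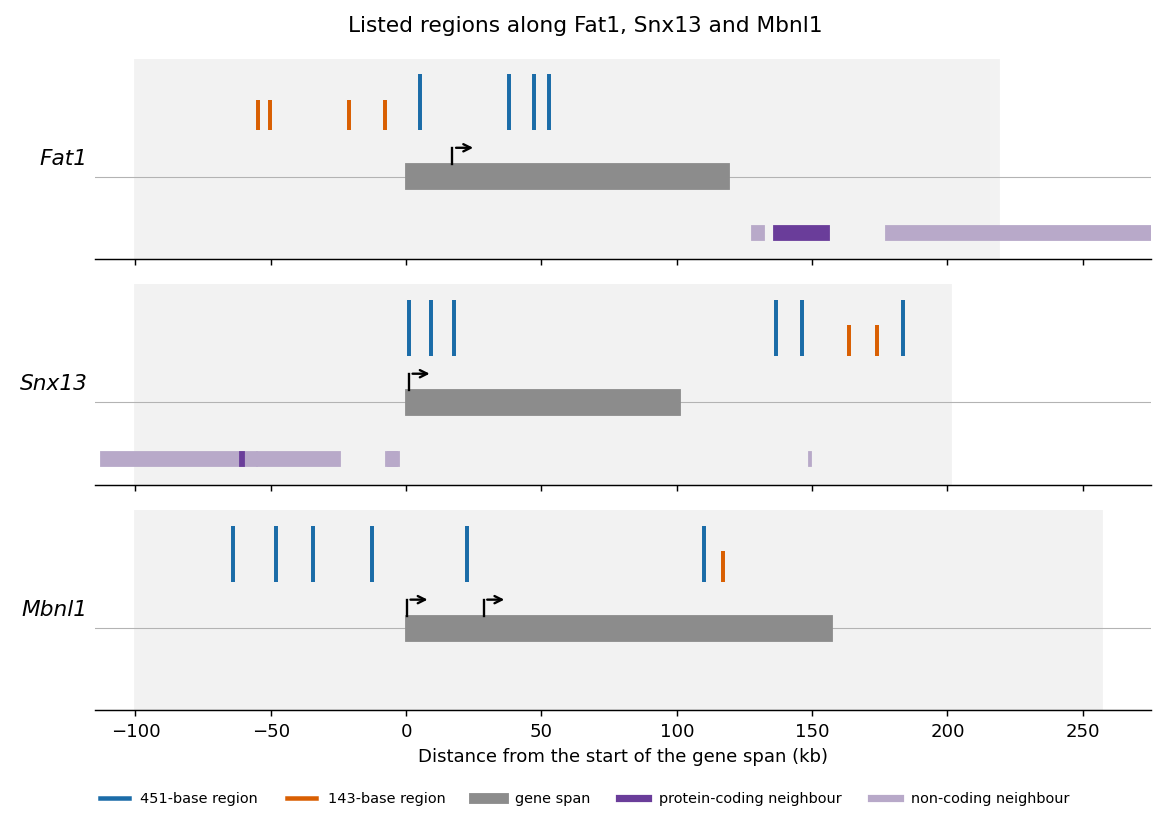
Positions of the 23 listed regions along Fat1 (top), Snx13 (middle) and Mbnl1 (bottom), in kb from the start of each gene span, with 451-base regions as tall blue ticks and 143-base regions as short orange ticks. Grey shading is the window of 100 kb on each side, grey bars are gene spans, arrows are annotated starts and purple bars are neighbouring genes. At Fat1 the 4 regions upstream have 143 bases and the 4 inside have 451, and at Snx13 the region-free stretch is 119 kb.

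Regions in the 3 windows lay close together, and most had the same width as the one before, as in the whole list. Over the 20 neighbouring pairs the median distance between centres was 13.0 kb (12.9 kb at Fat1, 9.44 kb at Snx13 and 18.9 kb at Mbnl1). It was 156 kb over all 6481 neighbouring pairs of the list, with the 10th and 90th percentiles at 15.8 and 940 kb. Genes chosen for many regions must have short distances, so the contrast follows from the choice. Equal widths were found in 16 of the 20 pairs (6 of 7 at Fat1, 5 of 7 at Snx13 and 5 of 6 at Mbnl1). In the list as a whole, equal widths were found in 66.6% of all pairs and in 72.5% of the 2799 pairs up to 120 kb apart. Those 2799 pairs had a median distance of 41.2 kb, so they were not matched in distance to the 20 pairs. Neighbouring pairs share regions and are not independent, and the difference was not tested.

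**Figure D2:**
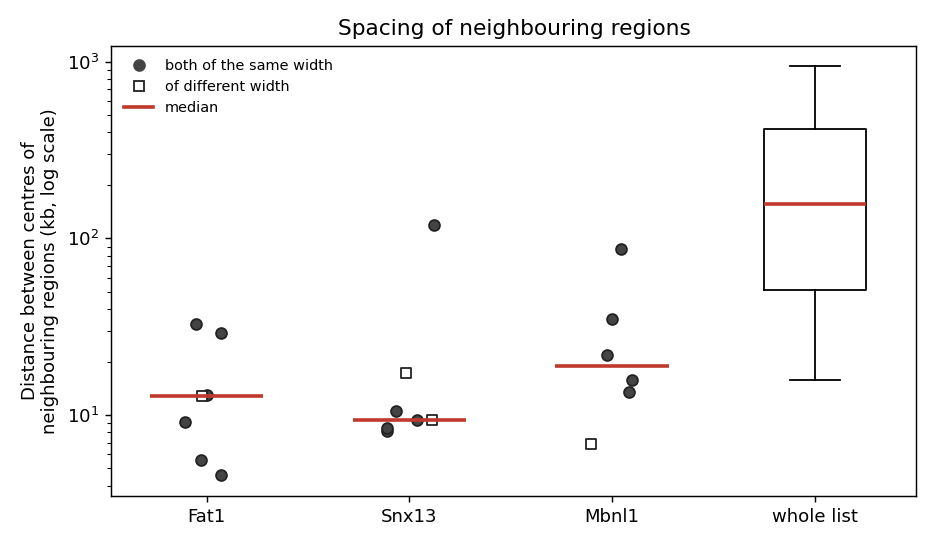
Distance between the centres of neighbouring regions (kb, log scale) in each gene's window and in the whole list. Points are pairs, filled where both regions have the same width, red lines are medians, and the box spans the quartiles with whiskers at the 10th and 90th percentiles of 6481 pairs. Medians are 12.9 kb at Fat1, 9.44 kb at Snx13 and 18.9 kb at Mbnl1, against 156 kb in the list.

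Of the 23 regions, 10 lay inside the genes, 8 upstream and 5 downstream. All 8 upstream regions belonged to Fat1 and Mbnl1 and all 5 downstream ones to Snx13. Among the 1913 regions of the list that lie outside genes and within 100 kb of a stranded gene, 55.7% were upstream. Along the gene bodies, 8 of the 10 inside regions fell before the midpoint, and 57.5% of the 2433 regions inside protein-coding genes of known strand did so. In the first 20% of the gene's length lay 5 of the 10, and 29.7% of the 2433. Exons and introns could not be told apart, since the annotation used here gives spans and starts only. The regions covered 2376 bases at Fat1, 2992 at Snx13 and 2849 at Mbnl1, or 0.744%, 0.993% and 0.798% of the windows in that order.

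Each cluster bordered on a long stretch without protein-coding genes, and how common such stretches are beside other genes was not measured. Upstream of Fat1 no protein-coding gene was annotated for 1230 kb, up to Adam34l. That gap held 12 regions, 6 of each width, with the 4 upstream Fat1 regions among them. Downstream, Mtnr1a, which encodes a melatonin receptor, began 16.8 kb from Fat1, with no region in between and none inside it. The lncRNA genes AY512931 and Gm30504 also began within 100 kb downstream, and none of the 8 regions overlapped them.

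Between Snx13 and the next protein-coding gene downstream, Ahr, which encodes the aryl hydrocarbon receptor, lay 350 kb, and the 5 downstream Snx13 regions were the only ones in that gap. The next listed region, chr12:35534707-35535157, lay across the edge of the Ahr span that is farther from Snx13. Whether Ahr begins or ends at that edge is not given here. Upstream of Snx13 the nearest protein-coding gene was Prps1l1, which encodes a phosphoribosyl pyrophosphate synthetase-like protein, 59.7 kb away, and 4 lncRNA genes lay within 100 kb. Gm33922, the nearest of them, ended 2.69 kb before Snx13. No region fell in any of these.

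A microRNA gene, Mir680-3, lies within the downstream Snx13 group on the minus strand at chr12:35194811-35194897. The centre of its mature product was 2.62 kb from that of the nearest region, chr12:35192017-35192467. Its mature sequence is printed as the only annotated transcript among these 5 regions, with the seed (bases 2 to 8) in capitals.
mmu-miR-680: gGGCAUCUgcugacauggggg

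Mbnl1 had no other gene in its window. Sucnr1, which encodes the succinate receptor, lay 385 kb upstream, and P2ry1, which encodes an ADP receptor, 373 kb downstream. The upstream gap held 6 regions, all of 451 bases, with the 4 upstream Mbnl1 regions among them, and the downstream gap held 1. That region, chr3:61002452-61002902, contained the annotated P2ry1 start. None of the 23 regions lay closer to another protein-coding gene than to the gene it is described with.

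Just beyond the 100 kb limit lay a 451-base region upstream of Mbnl1, chr3:60371645-60372095, centred 101 kb from the span and so not counted, while the farthest counted at Mbnl1 was at 63.9 kb. At Fat1 the farthest counted region was 54.8 kb out and the next, of 143 bases, 128 kb out. At Snx13 the farthest counted region was 82.2 kb out. The next upstream, of 451 bases, was 139 kb out and inside Hdac9, which encodes a histone deacetylase.

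Such counts were rare for genes of this length. Of 21887 protein-coding genes, 42.7% had at least 1 region in their window 0.16% (35 genes) had 7 or more, as at Mbnl1, and 0.0685% (15 genes) had 8 or more, as at Fat1 and Snx13. Among the 2149 genes that span 80 to 200 kb, 58.7% had at least 1 and 0.419% (9 genes) had 7 or more, with a median of 1. Per 100 kb of window there were 2.51 regions at Fat1, 2.65 at Snx13 and 1.96 at Mbnl1, against a median of 0.298 for genes of 80 to 200 kb. By this density Snx13 had rank 2 among the 2149, Fat1 rank 3 and Mbnl1 rank 12. Inside the span, 2.28% of these genes had 3 or more regions, as Fat1, Snx13 and Mbnl1 did. These shares read nothing into the 3 genes, which were chosen on this count.

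Some of the other genes with high counts owed them to regions closer to a neighbour. With each region given only to the shortest protein-coding gene around it, or otherwise to the nearest within 100 kb, 16.9% of genes were given at least 1 and 0.0503% (11 genes) 7 or more. In 7 of the 35 genes with 7 or more regions in the window, every one of them was given to the gene itself. Those were Fat1, Snx13 and Mbnl1 and 4 genes of 1024 to 1612 kb, Astn2, Anks1b, Pde4d and Fhit. Among the 9 genes spanning 80 to 200 kb with 7 or more, it held for Fat1, Snx13 and Mbnl1 alone. These 3 were chosen on their number of regions, so this trait may be built into the choice, and it was not tested. At the edge of the choice, 4 genes were given 7 regions, Mbnl1 among them, and 19 genes were given 6.

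Among the other genes given 7 or 8 regions, Itga1 and Nhsl1 were nearest to these in length. Itga1, an integrin gene of 144 kb, had 8 regions in its window, of which 7 were given to it and 5 lay inside. Nhsl1, a gene of 216 kb, had 10 in its window, of which 8 were given to it, all of 451 bases. Fat1, with 4 given regions of each width, had the most even mix among the 11 genes given 7 or more, in which 143-base regions numbered 0 to 4. Such a mix was not particular to Fat1. In their windows Fbxw11 (104 kb) and Acvr1 (120 kb), which were given fewer regions, each had 4 of 143 bases and 3 of 451.

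**Figure D3:**
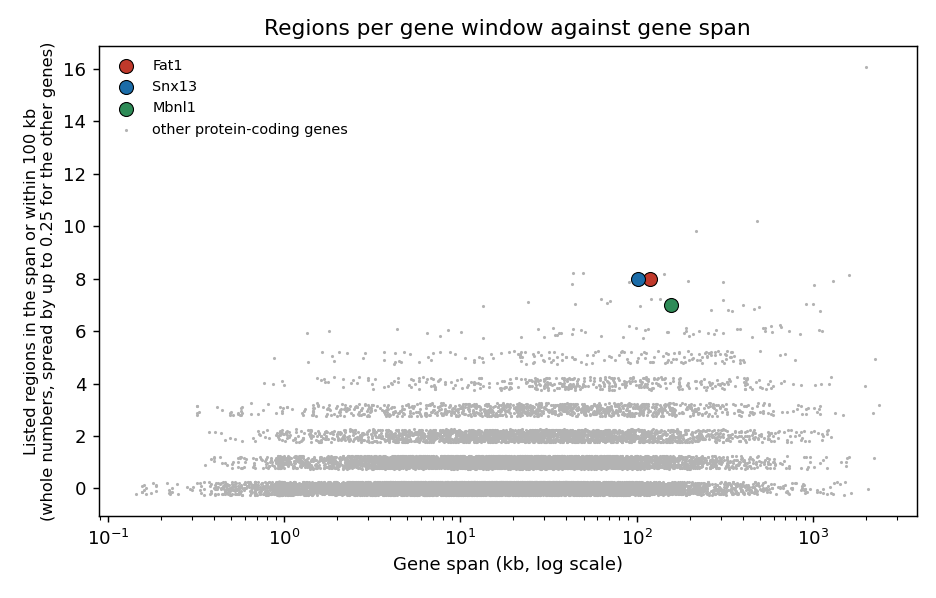
Listed regions in each protein-coding gene's window (vertical) against its span (kb, log scale) for 21887 genes. Grey points are the other genes, moved up or down by up to 0.25 to show their number, and coloured points are Fat1 (119 kb, 8 regions), Snx13 (101 kb, 8) and Mbnl1 (157 kb, 7). The 3 genes sit above most genes of like span, whose median is 1.

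The relatives of Fat1 had fewer regions than Fat1, which was chosen for its count. In the list of Fat and Dachsous cadherins, 4 of the 6 genes other than Fat1 had a region in the window, against 42.7% of all protein-coding genes and 58.7% of those spanning 80 to 200 kb. Over all 7 genes of that list the median was 1 region, as it was over genes spanning 80 to 200 kb. Fat2 had 2, 1 of each width. Fat4 had a single region, of 451 bases and 1.03 kb inside one of its ends, and Fat3, of 592 kb, a single 143-base region deep inside it. Dchs2, a partner cadherin gene, had a 143-base region 83.2 kb away. Dchs1 and Fjx1, which encodes a kinase related to Drosophila Four-jointed, had none.

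Genes of the Hippo pathway had a region in 17 of 21 windows (81.0%, against 42.7% of all genes and 58.7% of those spanning 80 to 200 kb), with a median of 1. Fewer of them, 8 of 21 (38.1%), were given a region, against 16.9% of all genes. Wwtr1, which encodes the coactivator TAZ, had 4, the most in the list, 2 of each width, of which 1 was given to it. Tead2, a gene of a transcription factor that binds YAP and TAZ, had 3 of 143 bases, none of them given to it. Stk3, which encodes the kinase MST2, had 2 inside the gene, of which the nearest to a gene end was 0.107 kb from it. Wwc1, which encodes the adaptor KIBRA, had 2 of 143 bases. Nf2, which encodes merlin, had 1 of each width. Lats1, Sav1, Mob1b and Taok2 had none.

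Among sorting nexins other than Snx13, 16 of 29 had a region in the window, against 42.7% of all genes and 58.7% of those spanning 80 to 200 kb. Snx13 had the most, with 8, and Snx18 came next with 4, all given to it, of which the nearest was 0.242 kb from a gene end. Snx29 had 3 of 143 bases. Snx12 and Snx24 had 2 of 451 bases each, and Snx33 had 2 of 143 bases. Of its closest relatives in the family, Snx14 and Snx25 had 2 each, none given to them, and Snx19 had 1.

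Of the 21 genes of splicing regulators other than Mbnl1, 12 had a region in the window, against the same 42.7% and 58.7%. Mbnl1 had 7. Its paralogues differed from it in count: Mbnl2, at 156 kb about as long, had 1, of 451 bases and not given to it, and Mbnl3 had 0. Nova1, a neuronal splicing factor gene, had 2 of 451 bases, and Rbfox2 had 2 of 143 bases. Celf3, Celf4 and Nova2 had 1 of 143 bases each. The epithelial splicing regulator genes Esrp1 and Esrp2 had none. The 4 lists were chosen with earlier results of these data known and hold genes of many lengths, and longer genes have longer windows, so their shares are given beside those of all genes without a test.

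**Figure D4:**
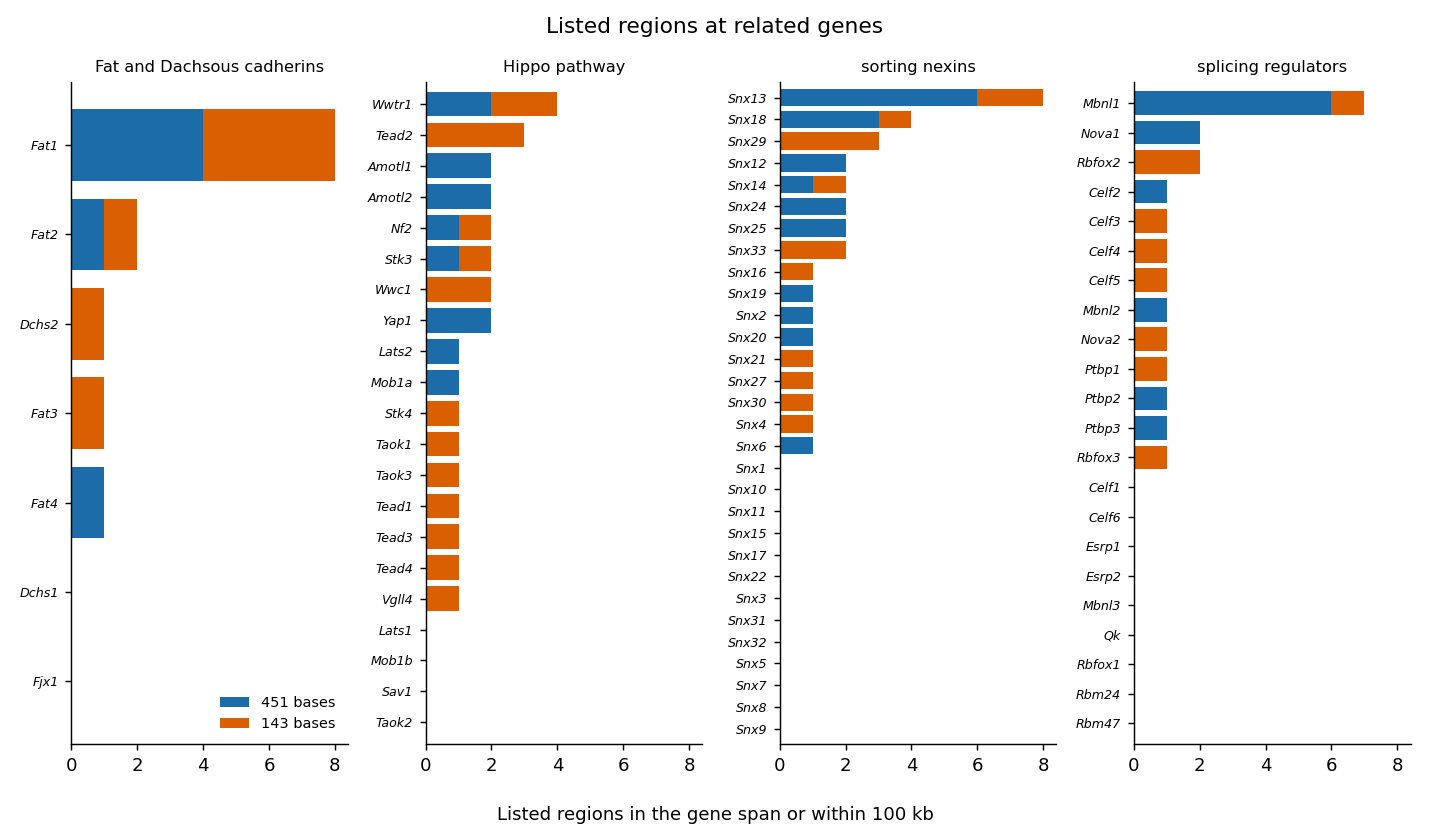
Listed regions in the window of each gene of 4 related lists, stacked by width (451 bases in blue, 143 bases in orange). Fat1 (8), Snx13 (8) and Mbnl1 (7) stand at the top of their lists, and the next highest counts there are 2, 4 and 2.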

How the data were processed

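Of the ATAC-seq libraries of basal prostate stem cells, 3 came from inflamed and 3 from naive prostates. The submitters' processing notes name BWA 0.7.17-r1188, SAMtools, HOMER 4.8 and edgeR with build mm10; order, thresholds and filters are not given in the sources used here. The authors deposited 1 merged list of 6502 regions with coordinates only. A filter before deposit fixes what can appear in it, and how close 2 regions can lie depends on their merging.

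Starts, counted from 0 in the list, are printed from 1. Gene spans came from a RefSeq table of GRCm38.p6 (mm10 has the same primary chromosomes), with 21887 protein-coding genes. Strands, starts and promoter sequences came from a RefSeq table that covers 17492 of them. Fat1, Snx13 and Mbnl1 matched by symbol in both tables. Regions were assigned with Python 3.11.15, numpy 2.4.6 and pandas 2.3.3. The code was tested on simulated regions: a plain search gave the same window count for 500 of 500 genes and the same assigned gene for 500 of 500 regions.

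The members, lists and motifs were chosen with earlier results of these data known. Named are the 3 genes, all protein-coding genes that meet their windows or come next to them, up to 10 genes given as many regions, and up to 5 genes per list by number of regions. List genes with no region, lncRNA genes, Mir680-3, Hdac9, Fbxw11, Acvr1, Snx14, Snx19, Snx25 and Mbnl2 were named after their values were seen. Since no value per library is held, no test between inflamed and naive libraries could be made.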

Additional observations from a re-analysis of the deposited data

How the results depend on the processing

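No paired analysis was possible because only coordinates of a merged list were at hand, and for the same reason no library could be left out. Of 48 alternative values (counts, spacing and density at the 3 genes), 40 stayed within 1.5 times the value reported. The other 8 were all counts, and each alternative by its construction admits fewer regions. Counting inside the gene span alone gave 4 regions at Fat1, 3 at Snx13 and 3 at Mbnl1. With 143-base regions alone there were 4 at Fat1, 2 at Snx13 and 1 at Mbnl1, and with 451-base regions alone 4 at Fat1. A reach of 50 kb in place of 100 kb left 5 at Snx13. With a reach of 200 kb, Fat1 had 11, Snx13 9 and Mbnl1 8. Counting by any overlap, by assigned gene, or after merging regions under 1 kb apart changed none of the 3 counts. Merging could not change a value here, because the closest pair lay 4.58 kb apart. Assignment could not either, because all 23 regions were given to their own gene. The values from these settings are among the 40 and say nothing of stability. Depth is unknown, so regions missing from the list cannot be read as unchanged.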
